A study of Mus musculus with 6 samples.

Results

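The genes described here are 10 members of the transforming growth factor beta (TGF-beta) pathway, taken by symbol from a gene table of 52550 Ensembl identifiers: the ligands Tgfb1, Tgfb2 and Tgfb3, the receptors Tgfbr1 and Tgfbr2, the SMAD proteins Smad2, Smad3, Smad4 and Smad7, and the SMAD-binding repressor Skil. All 10 were found and all 10 passed the filter on low counts. Messenger RNA was sequenced from primary keratinocytes of the skin epidermis of wild type C57BL/6 mice, taken 0 to 2 days after birth and cultured for 2 days. The IL-33 group, 3 libraries, was then given recombinant IL-33 (an IL-1 family cytokine that signals tissue damage) for 12 h, and the untreated group, also 3 libraries, had none. The labels give no dose. They also leave unsaid whether replicate libraries stem from different cultures or mice, so each p-value refers to variation among the 6 libraries, part or all of which may be technical.

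TGF-beta ligands are secreted in a latent form and, once released, bind the type II receptor (Tgfbr2), which then recruits and phosphorylates the type I receptor (Tgfbr1). The type I receptor phosphorylates Smad2 and Smad3, which join Smad4 and enter the nucleus to control transcription, while Smad7 and Skil restrain the signal and are themselves switched on by it. In epidermis the pathway is best known for halting keratinocyte proliferation and for its part in wound repair.

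No difference in any of the 10 genes was detected after 12 h of IL-33. None of them passed edgeR's quasi-likelihood test over all genes (smallest adjusted p = 0.777, for Smad3), 0 of 10 had an unadjusted p under 0.05, and DESeq2 also called 0 of them. The background was low: 11 of 15778 tested genes, or 0.0697%, were called by edgeR, 6.74% had an unadjusted p under 0.05, and DESeq2 called 0.438%. The log2 fold change, given throughout as IL-33 minus untreated, was below 0 for 8 of the 10 members, against 49.5% of all tested genes, with a median of -0.07 against 0.00 over all genes. Among the 8, Tgfbr1 (-3.2e-04) and Tgfbr2 (-0.01) lay close to 0. The signs of Tgfb1, Tgfb2, Tgfbr1 and Tgfbr2 turned in other settings. Only 2 members, Smad2 and Smad7, had a value above 0, and neither passed. These are bulk cultures, in which fewer cells of a type and less RNA per cell cannot be told apart.

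**Figure D1:**
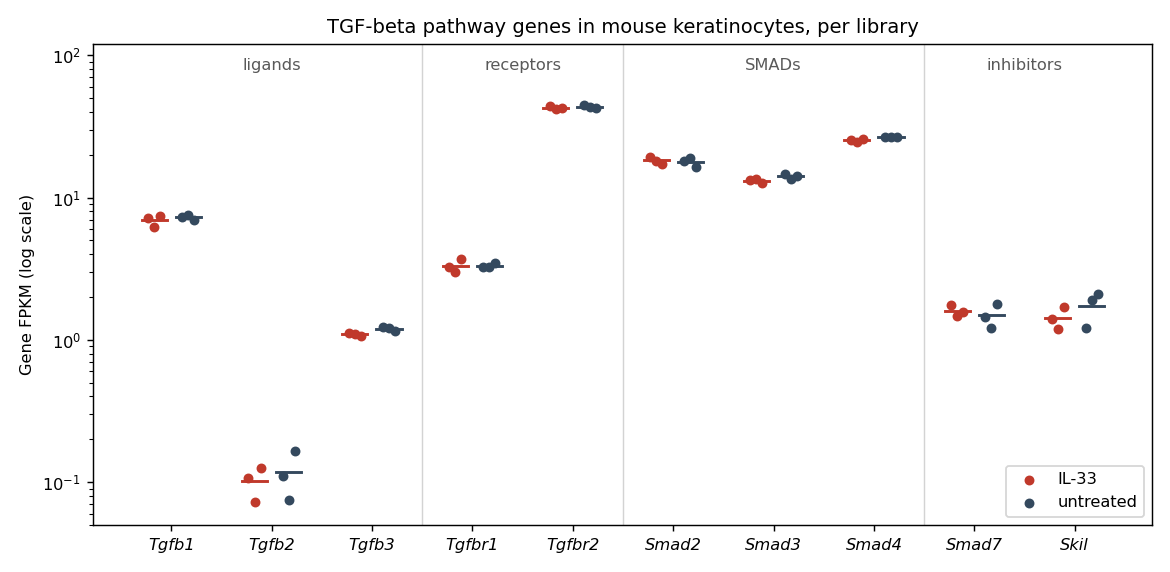
Level of each gene in each library as gene FPKM, on a log scale, with IL-33 libraries in red to the left and untreated libraries in dark blue to the right; lines are group means (n = 3). Tgfbr2 is at the top near 43 FPKM and Tgfb2 at the bottom near 0.1 FPKM in both groups, and the red and blue points of most genes lie at the same height.

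Levels are given per length, as the deposited FPKM (fragments per kilobase, scaled to library size). The order of the genes by gene FPKM, from the highest, was Tgfbr2, Smad4, Smad2, Smad3, Tgfb1, Tgfbr1, then Smad7 and Skil, then Tgfb3 and Tgfb2. Smad7 and Skil overlapped each other in both groups, with Smad7 first in the IL-33 libraries and Skil first in the untreated ones, and both overlapped Tgfb3 in the untreated libraries. No other neighbours in this order overlapped within a group. The gene FPKM divides by the length of all annotated exons of a gene joined together, as a rebuild from the transcript table showed for 9 of the 10 members within 0.1%, so it understates genes with retained introns or unused exons. Summed over transcripts instead, Tgfb1 stood at 16.5 ± 1.56 FPKM with IL-33 and 16.9 ± 0.557 FPKM untreated (SD, n = 3), level with Smad3 at 14.7 ± 0.698 and 15.6 ± 0.685 FPKM. On that scale Skil overlapped Tgfbr1, at 4.19 ± 0.0923 FPKM with IL-33 and 5.04 ± 1.42 FPKM untreated.

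Among the ligands Tgfb1 was the main transcript. Tgfb1 (ENSMUSG00000002603.15, chromosome 7, 25687002 to 25705077) encodes the ligand most often tied to growth arrest of epithelial cells. Its gene FPKM was 7.23, 6.21 and 7.38 in the IL-33 libraries, against 7.34, 7.50 and 6.97 in the untreated libraries. The groups overlapped, and the lowest library was IL-33 replicate 2, also the shallowest. The log2 fold change was -0.07 with a standard error (SE) of 0.08 and a 95% interval of -0.25 to 0.12 (edgeR adjusted p = 0.913). Tgfb1 made up 85.3% ± 0.941 of the gene FPKM of the 3 ligands with IL-33 and 84.7% ± 0.612 untreated, and 93.1% ± 0.494 and 92.7% ± 0.323 of the summed transcript FPKM.

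Tgfb3 (ENSMUSG00000021253.7, chromosome 12, 86056745 to 86079041), a ligand known for palate closure and for roles in wound healing, was present at about 1 FPKM. It had 1.12, 1.09 and 1.07 FPKM in the IL-33 libraries, against 1.22, 1.21 and 1.15 FPKM in the untreated libraries. Every IL-33 value lay below every untreated value, yet the difference missed the test (log2 fold change -0.13, SE 0.16, 95% interval -0.49 to 0.23, edgeR adjusted p = 0.913). The gene rests on 140 to 206 deposited counts per library, about 4 of which stand for 1 fragment. Tgfb3 overlaps Ttll5 on the opposite strand, and the labels do not say that strand was used in counting, so reads of Tgfb3 and Ttll5 cannot be told apart there.

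Tgfb2 (ENSMUSG00000039239.14, chromosome 1, 186622792 to 186705989), the remaining ligand, was near the limit of detection. It had 30, 16 and 36 deposited counts in the IL-33 libraries, against 32, 20 and 48 in the untreated libraries, where 12 deposited counts (3 fragments) are the limit that a count of 0 allows. In FPKM these were 0.106, 0.0729 and 0.126 with IL-33 and 0.111, 0.0748 and 0.165 untreated. The groups overlapped, and the 95% interval of the fold, 0.418 to 1.83, leaves room for a large change either way (log2 fold change -0.19, SE 0.48, edgeR adjusted p = 0.963). A small antisense gene and a snoRNA lie across Tgfb2 on the other strand.

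Both receptor chains were detected in every library, at very different levels. Tgfbr2 (ENSMUSG00000032440.13, chromosome 9, 116084293 to 116175360), the ligand-binding type II receptor, had 44.0, 42.1 and 42.6 FPKM in the IL-33 libraries, against 44.6, 43.0 and 42.4 FPKM in the untreated libraries. All 6 values lay between 42.1 and 44.6 FPKM, and the groups overlapped. The fold was 0.990 with a 95% interval of 0.932 to 1.05 (edgeR adjusted p = 0.965), the narrowest interval of the 10. Tgfbr1 (ENSMUSG00000007613.15, chromosome 4, 47353222 to 47414931), the type I receptor kinase, had 3.25, 2.98 and 3.71 FPKM with IL-33 and 3.24, 3.25 and 3.46 FPKM untreated. Its groups had almost the same mean, 3.31 ± 0.367 and 3.32 ± 0.124 FPKM (SD, n = 3), and a fold interval of 0.856 to 1.17. Within a library the gene FPKM of Tgfbr2 was 11.5 to 14.1 times that of Tgfbr1, and the summed transcript FPKM 12.3 to 14.2 times. That ratio was 13.0 ± 1.38 with IL-33 and 13.1 ± 0.762 untreated on the gene scale, so it did not separate the groups.

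Of the SMADs that carry the signal, Smad4 and Smad3 were slightly lower in every IL-33 library, and Smad2 was not. Smad4 (ENSMUSG00000024515.13, chromosome 18, 73639009 to 73703780), the common partner that TGF-beta and BMP signals share, had 25.5, 24.5 and 25.6 FPKM in the IL-33 libraries, against 26.5, 26.7 and 26.6 FPKM in the untreated libraries. The groups did not overlap, and the untreated libraries lay close together, at 26.6 ± 0.0880 FPKM (SD, n = 3). The log2 fold change was -0.08 (SE 0.05, 95% interval -0.19 to 0.03, edgeR adjusted p = 0.793). A processed pseudogene lies within Smad4 on the other strand.

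Smad3 (ENSMUSG00000032402.12, chromosome 9, 63646767 to 63757994), which binds DNA and conveys much of the growth arrest signal, averaged 13.2 ± 0.465 FPKM with IL-33 and 14.1 ± 0.559 FPKM untreated (SD, n = 3). The groups only just failed to overlap, with the highest IL-33 library at 13.49 FPKM and the lowest untreated library at 13.54 FPKM. Its log2 fold change of -0.10 (SE 0.06, 95% interval -0.23 to 0.03) had the smallest unadjusted p of the 10 members, 0.112, and an edgeR adjusted p of 0.777. Smad2 (ENSMUSG00000024563.15, chromosome 18, 76241580 to 76310963), the other receptor-activated SMAD of the TGF-beta branch, had 19.3, 18.2 and 17.2 FPKM with IL-33 and 18.0, 19.0 and 16.4 FPKM untreated. These groups overlapped (log2 fold change 0.04, SE 0.07, 95% interval -0.13 to 0.20, edgeR adjusted p = 0.950).

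Thus in 3 members, Tgfb3, Smad3 and Smad4, all IL-33 libraries lay below all untreated libraries, and in no member the reverse. The same separation was seen in 6.31% of all tested genes in that direction and in 13.6% in either direction. None of the 3 passed the test, and their fitted folds were 0.915, 0.932 and 0.946.

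The inhibitors were low and varied between libraries of 1 group by more than the means of the groups differed. Smad7 (ENSMUSG00000025880.11, chromosome 18, 75367529 to 75395935), which blocks the type I receptor, had 1.74, 1.46 and 1.57 FPKM in the IL-33 libraries, against 1.44, 1.22 and 1.79 FPKM in the untreated libraries. The groups overlapped, with the lowest and the highest library both untreated (log2 fold change 0.10, SE 0.17, 95% interval -0.28 to 0.48, edgeR adjusted p = 0.941). Skil (ENSMUSG00000027660.16, chromosome 3, 31095058 to 31122577), which encodes the repressor SnoN that sits on SMAD complexes, had 1.40, 1.18 and 1.69 FPKM with IL-33 and 1.20, 1.90 and 2.10 FPKM untreated. Untreated replicate 1 lay with the IL-33 libraries, apart from the other untreated libraries. The log2 fold change of Skil was the lowest of the 10, -0.28, with an SE of 0.22 and an interval of -0.81 to 0.24 (edgeR adjusted p = 0.845). Without untreated replicate 1 it was -0.50 with an unadjusted p of 0.0125, and the adjusted p over all genes was 0.939. Without untreated replicate 3 it was -0.12 (unadjusted p = 0.607), without IL-33 replicate 2 it was -0.17, and without IL-33 replicate 3 it was -0.43, all by edgeR.

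**Figure D2:**
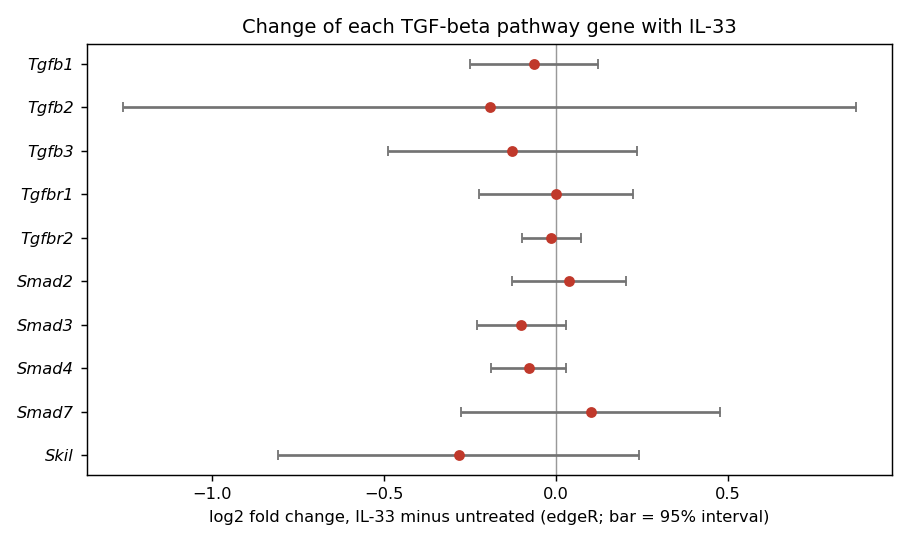
Log2 fold change of each gene, IL-33 minus untreated, from edgeR on the gene counts; points are estimates and bars 95% intervals that include the spread between libraries. All 10 bars cross 0, the narrowest for Tgfbr2 (-0.10 to 0.07) and the widest for Tgfb2 (-1.26 to 0.87).

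The intervals show how large a change the data leave room for. They cover the spread among these libraries only, which may leave out variation between cultures or mice. For 6 of the 10 genes (Tgfb1, Tgfbr1, Tgfbr2, Smad2, Smad3 and Smad4) the 95% interval stayed within 1.25-fold in either direction. For Tgfb3, Smad7 and Skil it reached 0.712, 1.39 and 0.571 at its far end, and for Tgfb2 the limit was set by depth.

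Several of these genes have annotated splice forms that differ by a short coding segment, and the transcript table assigns a level to each. The segments are shown because they define the forms compared below; each is from the GENCODE M21 transcripts on GRCm38, 5′ to 3′ on the gene's strand, with the segment in capitals and 15 flanking bases of the transcript on each side in lower case.
Tgfbr2 with the exon: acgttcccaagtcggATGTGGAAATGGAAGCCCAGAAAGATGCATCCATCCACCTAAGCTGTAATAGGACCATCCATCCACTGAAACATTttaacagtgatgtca
Tgfbr2 without it: acgttcccaagtcggttaacagtgatgtca
Tgfbr1 long boundary: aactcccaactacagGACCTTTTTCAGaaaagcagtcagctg
Tgfbr1 short boundary: aactcccaactacagaaaagcagtcagctg
Skil long form: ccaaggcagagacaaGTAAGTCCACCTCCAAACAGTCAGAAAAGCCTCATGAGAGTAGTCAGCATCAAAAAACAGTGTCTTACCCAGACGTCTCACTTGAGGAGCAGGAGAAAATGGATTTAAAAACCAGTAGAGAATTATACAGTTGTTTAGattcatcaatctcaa
Skil short form: ccaaggcagagacaaattcatcaatctcaa

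The Tgfbr2 segment is a whole exon of 75 bases (chr9:116158271-116158345, minus strand) that begins at base 95 of the coding sequence and adds 25 residues to the outer part of the receptor. The Tgfbr1 segment is 12 bases at an exon boundary (chr4:47393247-47393258, plus strand), which add 4 residues. The Skil segment is 138 bases (chr3:31113503-31113640, plus strand), or 46 residues, missing from the short form known as SnoN2. All 3 lengths are multiples of 3, so the reading frame is kept. Smad2 has a comparable exon of 90 bases (30 residues), whose presence is known to keep full-length Smad2 from binding DNA directly.

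Most Tgfbr2 signal was assigned to the form with the exon, whose transcript ENSMUST00000061101.11 had 34.6, 34.2 and 33.3 FPKM in the IL-33 libraries and 36.9, 35.1 and 34.5 FPKM in the untreated libraries. The form without it, ENSMUST00000035014.7, had 23.1, 19.4 and 22.8 FPKM with IL-33 and 19.1, 19.6 and 19.5 FPKM untreated. The groups overlapped in both forms: IL-33 replicate 1 exceeded untreated replicate 3 in the form with the exon, and IL-33 replicate 2 lay within the untreated values in the form without it. The form with the exon held 60.0%, 63.8% and 59.4% of the pair with IL-33 and 65.9%, 64.2% and 63.9% untreated. The difference was -3.59 percentage points, and the groups did not overlap, by a margin of 63.83% against 63.86%. An exact two-sided permutation test gave p = 0.1, the smallest p that 3 against 3 libraries allow, and 0.4 adjusted over the 4 genes whose shares were compared. The paired transcripts also differ in length, 8092 against 3476 bases, so the shares reflect more than this exon. Neither transcript passed edgeR (log2 fold change -0.06 and 0.16, adjusted p = 1.00 each). Without IL-33 replicate 2 the log2 fold change of the form without the exon was 0.25 (edgeR unadjusted p = 0.00715, adjusted p = 0.684). Without IL-33 replicate 1 it was 0.12 (edgeR unadjusted p = 0.283).

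In Tgfbr1 the long boundary held 84.1%, 77.3% and 87.7% of the transcript FPKM with IL-33, against 88.7%, 80.4% and 87.1% untreated. The groups overlapped (difference -2.32 points, exact permutation p = 0.6). In Skil the forms with the segment held 84.2%, 90.8% and 77.7% with IL-33, against 75.3%, 96.2% and 95.9% untreated, and the groups overlapped (difference -4.88 points, exact permutation p = 0.6). The low share of untreated replicate 1 came from a further coding form without the segment, ENSMUST00000117728.7 (1647 coding bases), which was assigned 0.739 FPKM in that library and listed at 0 in the other libraries. Counting only forms of the printed long and short coding lengths, 2025 and 1887 bases, an alternative added after the data were seen, the long form held 84.2%, 90.8% and 77.7% with IL-33, against 99.6%, 96.2% and 95.9% untreated. All IL-33 shares then lay below all untreated shares, by -13.0 points on average, with an exact permutation p of 0.1, the smallest possible, and 0.2 adjusted over the 4 genes. The Skil result thus rests on how that single transcript in 1 library is treated. In Smad2 the share of forms that keep the exon ran from 53.1% to 82.4%, and both ends were untreated libraries. The means were 66.7% ± 6.51 with IL-33 and 66.7% ± 14.8 untreated (SD, n = 3; exact permutation p = 1). The main transcripts with and without the segment differ in length in these genes as well. They have 5756 and 2861 bases in Tgfbr1, 2904 and 6578 in Skil, and 8089 and 1645 in Smad2, so these shares too reflect more than the segment. All shares come from the authors' assignment of reads to overlapping transcripts, and its error is not in the files.

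**Figure D3:**
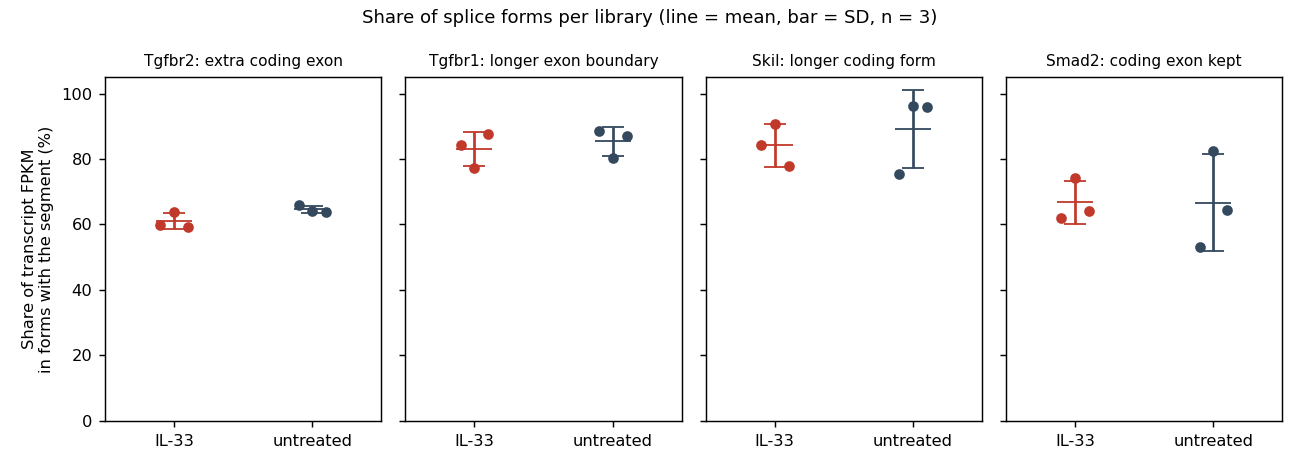
Share of transcript FPKM held by the forms that contain the variable coding segment of Tgfbr2, Tgfbr1, Skil and Smad2, in percent, for IL-33 libraries (red, left) and untreated libraries (dark blue, right); points are libraries, lines means and bars SD (n = 3). Tgfbr2 shows the tightest shares, 59.4% to 65.9%, and Smad2 the widest, 53.1% to 82.4%.

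Across the transcripts of the 10 genes, 48 were in the table, 25 passed the filter and 0 were called (0 at an unadjusted p under 0.05; DESeq2 also called 0). In the whole transcript table edgeR called 12 of 40163, or 0.0299%, and 4.24% had an unadjusted p under 0.05. In simulated data, with changes set in transcripts drawn at random, the edgeR fit missed most of them. The absence of calls among these transcripts therefore carries little weight by itself, and the 95% intervals differ between forms. For log2 fold change they were -0.15 to 0.02 for ENSMUST00000061101.11 of Tgfbr2, -0.20 to 0.04 for the main Smad4 transcript and -0.24 to 0.03 for that of Smad3. For ENSMUST00000091831.12 of Smad2 the interval was -1.65 to 1.99. Nearly all of the FPKM of Tgfb1, Tgfb3, Smad3, Smad4 and Smad7 was on a single transcript each. For Smad3 it was ENSMUST00000034973.9, at 14.3 ± 0.489 FPKM with IL-33 and 15.3 ± 0.605 FPKM untreated (SD, n = 3). For Smad4 it was ENSMUST00000025393.13, at 27.1 ± 0.839 and 28.6 ± 0.431 FPKM. The short Smad2 transcript ENSMUST00000171256.7, whose coding end is not annotated, had 0.821 ± 0.475 FPKM with IL-33 and 2.17 ± 1.50 FPKM untreated, and the short Skil form ENSMUST00000118470.7 had 0.593 ± 0.337 and 0.154 ± 0.128 FPKM. Neither difference passed (edgeR adjusted p = 1.00 each). For the short Skil form the 95% interval of the log2 fold change was -0.95 to 4.81, so a large difference is not excluded by these data.

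The remaining transcripts with at least 0.5 FPKM in either group were as follows, as mean and SD over 3 libraries. The main Tgfb1 transcript ENSMUST00000002678.9 had 15.8 ± 1.54 FPKM with IL-33 and 16.7 ± 0.725 FPKM untreated. The Tgfb3 transcript ENSMUST00000003687.7 had 1.09 ± 0.0284 and 1.20 ± 0.0397 FPKM, and the Smad7 transcript ENSMUST00000026999.9 had 1.68 ± 0.155 and 1.55 ± 0.278 FPKM. For Tgfbr1 the long boundary was mostly ENSMUST00000007757.14, at 3.41 ± 0.484 FPKM with IL-33 and 3.44 ± 0.189 FPKM untreated, and the short one mostly ENSMUST00000044234.13, at 0.667 ± 0.178 and 0.601 ± 0.178 FPKM. For Smad2 the full-length form ENSMUST00000168423.7 had 17.3 ± 1.45 FPKM with IL-33 and 16.2 ± 4.17 FPKM untreated. The Smad2 forms without the exon, ENSMUST00000091831.12 and ENSMUST00000113930.2, had 7.11 ± 2.27 and 1.64 ± 0.662 FPKM with IL-33, against 6.33 ± 4.44 and 3.01 ± 1.76 FPKM untreated. The long Skil form ENSMUST00000118204.1 had 2.82 ± 0.460 FPKM with IL-33 and 3.97 ± 2.06 FPKM untreated, and the incomplete Skil model ENSMUST00000123532.1 had 0.570 ± 0.607 and 0.135 ± 0.234 FPKM. The minor Smad4 transcripts ENSMUST00000114939.1, ENSMUST00000147315.7 and ENSMUST00000142672.7 averaged 0.554, 0.531 and 0.327 FPKM with IL-33, against 0.633, 0.377 and 0.529 FPKM untreated. In Smad2 and Skil the spread between untreated libraries was wide for nearly every form, while the main forms of Smad3, Smad4 and Tgfbr2 were steady.

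The other genes of the pathway were read from 5 lists with 84 genes in all, of which 83 were tested. None was called by edgeR, and DESeq2 called 0. By edgeR 8 of 83 had an unadjusted p under 0.05, beside 6.74% of all tested genes. IL-33 and untreated libraries did not overlap in 11 of the 83, beside 13.6% of all tested genes. In 9 of the 83 the IL-33 libraries were the lower ones, beside 6.31% of all tested genes. The medians of the 5 lists ran from -0.09 to -0.01 on the log2 scale, against 0.00 over all genes.

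**Figure D4:**
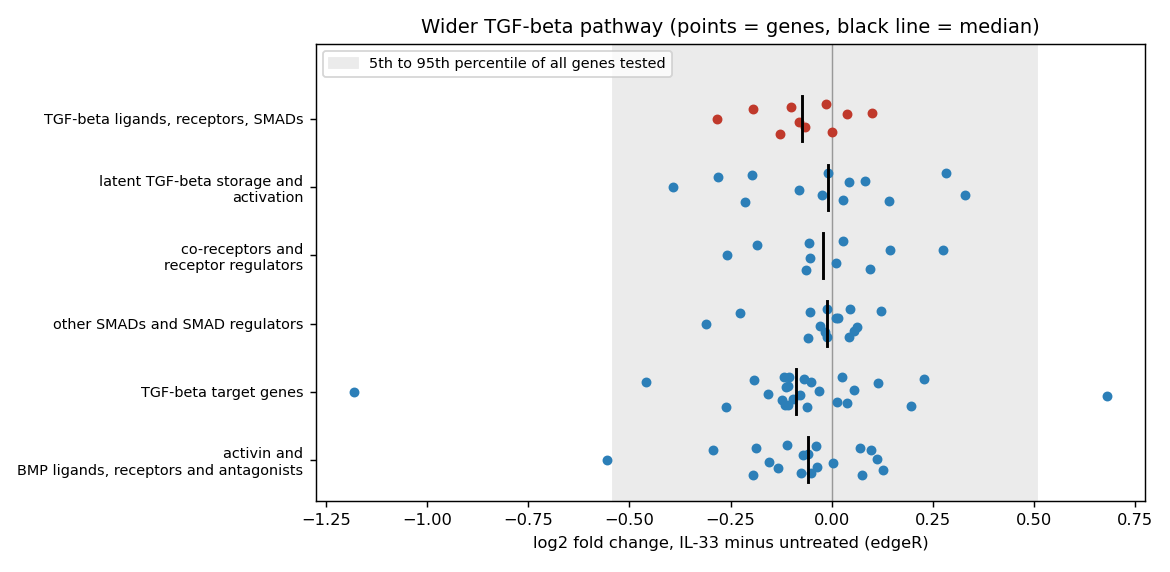
Log2 fold change, IL-33 minus untreated, of each tested gene in the TGF-beta core (red) and 5 lists of other pathway genes (blue), with the median of each list as a black line. The grey band is the 5th to 95th percentile of all genes tested, -0.54 to 0.51, and Col1a1 (-1.18), Tgfbi (0.68) and Bmp4 (-0.56, named after its value was seen) are the points outside it.

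Storage and release of latent TGF-beta gave 0 calls in 13 genes, with 6 above 0 and 7 below. Ltbp1, which ties latent TGF-beta to the matrix, had 3.98, 3.94 and 3.62 FPKM in the IL-33 libraries, against 4.62, 4.32 and 4.45 FPKM in the untreated libraries. Ltbp4, a relative with the same role, had 5.77, 5.96 and 5.80 FPKM with IL-33 and 7.01, 7.11 and 6.01 FPKM untreated. In each gene all IL-33 values lay below the untreated values, with log2 fold changes of -0.21 and -0.20 and edgeR adjusted p of 0.669 and 0.740. Thbs1, thrombospondin, which can activate latent TGF-beta, was abundant at 76.5 ± 1.57 FPKM with IL-33 and 80.9 ± 3.86 FPKM untreated (SD, n = 3; edgeR adjusted p = 0.763).

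Co-receptors and regulators of the receptors gave 0 calls in 10 genes, 5 on each side of 0. Pmepa1, a TGF-beta-induced gene whose protein holds SMADs back from the receptor, stood at 4.37 ± 0.373 FPKM with IL-33 and 4.97 ± 0.376 FPKM untreated. Tgfbr3, the co-receptor betaglycan that presents ligand to the type II receptor, stood at 3.80 ± 0.172 and 3.44 ± 0.263 FPKM, and Tgfbrap1, a protein that binds the receptors, at 4.42 ± 0.298 and 4.14 ± 0.218 FPKM. The groups of all 3 overlapped, with edgeR adjusted p from 0.763 to 0.842.

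Other SMADs and their regulators gave 0 calls in 15 genes, 7 above 0 and 8 below. Tgif1, a repressor that competes for SMAD complexes, had 15.6, 15.4 and 15.7 FPKM in the IL-33 libraries, against 16.3, 22.2 and 19.5 FPKM in the untreated libraries. Its untreated libraries were spread widely, and its log2 fold change of -0.31 (SE 0.10) had an unadjusted p of 0.0159 and an edgeR adjusted p of 0.717. Smad5, a SMAD of the BMP branch, stood at 16.3 ± 0.369 FPKM with IL-33 and 15.7 ± 0.632 FPKM untreated, and the ubiquitin ligase gene Nedd4l at 5.04 ± 0.0495 and 4.83 ± 0.246 FPKM.

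Genes known to be induced or repressed by TGF-beta gave 0 calls in 26, 8 above 0 and 18 below, with a median of -0.09. Tgfbi, which encodes a matrix protein induced by TGF-beta, had 1.28, 2.11 and 1.30 FPKM in the IL-33 libraries, against 0.936, 0.850 and 1.12 FPKM in the untreated libraries. All IL-33 values lay above all untreated ones, and IL-33 replicate 2 stood apart from the rest (log2 fold change 0.68, SE 0.23, edgeR adjusted p = 0.710). Without IL-33 replicate 2 the log2 fold change was 0.41, with an unadjusted edgeR p of 0.0698. Col4a2, a basement membrane collagen chain, stood at 21.3 ± 1.22 FPKM with IL-33 and 23.8 ± 0.819 FPKM untreated (SD, n = 3; edgeR adjusted p = 0.710). Col1a1 had 0.562, 0.328 and 0.489 FPKM with IL-33 and 1.73, 0.644 and 0.781 FPKM untreated (log2 fold change -1.18, SE 0.42, edgeR adjusted p = 0.740). Without untreated replicate 1 its log2 fold change was -0.63, and by limma on log2(FPKM + 1) it was -0.46. It is a fibroblast collagen and is also in the list of fibroblast markers, of which 8 of 8 had reads and 1 averaged over 1 FPKM across the 6 libraries, and which summed to 4.60 to 4.86 FPKM with IL-33 and 4.91 to 5.93 FPKM untreated. That sum includes Col1a1. Of the other markers in it, Col3a1, Pdgfra and Dcn averaged higher with IL-33, and Col1a2, Pdgfrb, Lum and Thy1 averaged lower. The part of fibroblasts in the Col1a1 difference was not tested.

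Activin and BMP ligands, receptors and antagonists gave 0 calls in 19 tested genes, 6 above 0 and 13 below. Bmpr2, a type II receptor for BMPs, had 3.21, 3.20 and 3.06 FPKM in the IL-33 libraries, against 3.82, 3.34 and 3.66 FPKM in the untreated libraries. Nog, the BMP antagonist noggin, had 8.98, 9.74 and 9.79 FPKM with IL-33 and 12.7, 9.88 and 12.4 FPKM untreated. In both genes the groups were apart, with edgeR adjusted p of 0.717 and 0.740. Acvr1, a type I receptor, stood at 7.40 ± 0.0959 FPKM with IL-33 and 8.43 ± 0.916 FPKM untreated, and its groups overlapped (edgeR adjusted p = 0.754).

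Other genes followed the pattern of Smad3, the member with the smallest p, across libraries. Among 9274 genes with a mean TMM-scaled log2 CPM of at least 3, those nearest to Smad3 by the root mean square difference of centred log2 CPM over the 6 libraries were Ptpn12, a tyrosine phosphatase (0.0155), Igf1r, the IGF receptor (0.0163), and Camsap2, a microtubule minus-end protein (0.0210). The median over all genes compared was 0.115, and Smad3's own spread on this scale was 0.0658. None of these was called (edgeR adjusted p = 0.808 for Ptpn12, 0.763 for Igf1r and 0.754 for Camsap2). They were chosen for closeness to Smad3, so this is not a result separate from that of Smad3. Nearest distances were not computed for other genes, so how close these are for a nearest match is not known.

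The cultures carried all 6 markers of basal keratinocytes in every library, summing to 15101 to 16256 FPKM with IL-33 and 14995 to 15479 FPKM untreated, and 1 of the 6 had an unadjusted p under 0.05. Krt5, a basal keratin, had 7517 to 8144 FPKM with IL-33 and 7350 to 7503 FPKM untreated, so every IL-33 library was above. Itgb4, an integrin chain of hemidesmosomes, had 129, 129 and 109 FPKM with IL-33 and 143, 145 and 143 FPKM untreated, so every IL-33 library was below. Melanocyte markers were present too, all 6 detected, summing to 449 to 487 FPKM with IL-33 and 446 to 468 FPKM untreated. Among them, every IL-33 library was above the untreated ones in Mlana and below them in Tyr. Groups that did not overlap, as in Krt5, Itgb4, Mlana and Tyr, were seen in 13.6% of all tested genes, in either direction. The 4 endothelial markers summed to 1.78 to 1.88 and 1.43 to 2.19 FPKM. Among 6 leukocyte markers Ptprc, Cd3e and Cd207 were at or near 0, and Csf1r held nearly all of a sum of 1.75 to 2.08 FPKM with IL-33 and 1.65 to 1.92 FPKM untreated. No marker was called (edgeR). Which cells made each TGF-beta transcript was not tested.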

How the data were processed

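The authors deposited tables of estimated counts and of FPKM per gene and per transcript for 6 libraries (3 IL-33, 3 untreated), per the file headers. Per the submitters' processing notes the build was mm10, and the tools listed, without roles, were StringTie 1.3.4d for one, with HISAT2 2.1.0, DESeq2 1.18.1 and FastQC 0.11.7. The deposited estimated counts needed no rounding, being whole already, but low values pile up at multiples of 4, and 4 were taken as about 1 fragment. Totals per library were 34188173 to 45266298 deposited counts, about 8547043 to 11316574 fragments; IL-33 replicate 2 was the lowest. Floors cover counting error only.

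Identifiers were matched to symbols without their version (52403 of 52550). Positions are from GENCODE M21 (GRCm38, also called mm10), which may not be the authors' release; 97.16% of transcript identifiers are in it with the same version. The main test was edgeR 4.0.16 (R 4.3.3), quasi-likelihood with robust fit, TMM and filterByExpr at a minimum count of 10, over all features, with Benjamini-Hochberg adjustment at 0.05. Gene levels are deposited FPKM, while tests use counts. Shares of splice forms were compared by an exact permutation test chosen after the data were seen. Alternatives were DESeq2 1.42.0, limma 3.58.1 on log2(FPKM + 0.1) or log2(FPKM + 1), other filters and scaling, counts divided by 4, a replicate block and leaving out each library. Fits were tested on simulated data, in which the transcript fit missed most of the changes that were set.

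The 10 members and the 5 pathway lists were chosen with earlier results of these data known. All members are named, and of each list the 3 genes with the smallest unadjusted p. Of the members' transcripts, those with a mean of at least 0.5 FPKM in either group are named, and of the genes most like the member with the smallest p, 3 are named. No 2 libraries of a group looked like copies of each other (median chi-square 1.894 to 2.495 times its sampling value).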

Additional observations from a re-analysis of the deposited data

How the results depend on the processing

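No member, pathway gene or member transcript was called under any alternative, DESeq2 and limma included. Over the whole gene table the number called was 71 with DESeq2, 17 with no filter, 4 in each limma fit on FPKM, and 11 to 90 with 1 library left out (20 without IL-33 replicate 1, 90 when replicate 3 of IL-33 was left out, 18 when untreated replicate 3 was). With the replicate number as a block it was 8, and 0 members were called. Correlations between same-numbered libraries were near 0 (0.0309, -0.00453 and -0.0231), and the numbers were not taken as pairs. By median chi-square over its sampling value, IL-33 replicate 3 was nearer untreated replicate 3 (2.241) than the other IL-33 libraries (2.495 and 2.494). For replicates 1 and 2 the nearest library was of the same group. Whether same-numbered libraries share a batch was not tested.

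The sign of 6 members' small changes turned in at least 1 setting, and the cause was not tested. With 1 library left out, log2 fold changes ran from -0.11 to 0.0069 for Tgfb1, -0.43 to 0.13 for Tgfb2, -0.089 to 0.069 for Tgfbr1, -0.034 to 3.2e-04 for Tgfbr2, -0.021 to 0.083 for Smad2 and -0.027 to 0.26 for Smad7; with counts divided by 4, Tgfbr1 was at 0.00033. Tgfb3, Smad3, Smad4 and Skil stayed below 0 in all settings run, and the number of members below 0 ranged from 6 to 9. Tgfb2 was not tested with the stricter filter, with counts divided by 4, or in limma with a minimum FPKM. The log2 fold change of Skil ran from -0.50 to -0.12 with 1 library left out. The 15 named pathway genes kept their direction in all 225 refits, but with 1 library left out the size ran from -1.44 to -0.63 for Col1a1, 0.41 to 0.81 for Tgfbi, -0.43 to -0.20 for Tgif1, 0.08 to 0.19 for Tgfbr3, 0.06 to 0.15 for Tgfbrap1, -0.11 to -0.05 for Thbs1, 0.03 to 0.09 for Smad5 and 0.02 to 0.09 for Nedd4l.

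Among named transcripts, 14 of 271 refits turned. With 1 library left out, the log2 fold change ran from -0.13 to 6.2e-04 for ENSMUST00000002678.9, -0.13 to 0.083 for ENSMUST00000007757.14, -0.089 to 0.39 for ENSMUST00000044234.13, -0.039 to 0.32 for ENSMUST00000168423.7, -0.31 to 0.64 for ENSMUST00000091831.12, -0.75 to 0.30 for ENSMUST00000114939.1, -0.0064 to 0.25 for ENSMUST00000026999.9 and -0.64 to 1.01 for ENSMUST00000147315.7. The last was -0.19 with the replicate block and -0.10 in limma with no filter.

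Leaving out each library was added for the shares of splice forms after seeing the data. The difference then ran from -4.98 to -2.75 points for Tgfbr2, -11.8 to -1.35 for Skil, -4.81 to 0.553 for Tgfbr1 and -6.73 to 7.93 for Smad2. Counting only forms of the compared coding lengths, also added later, gave -1.80 for Tgfbr1, -13.0 for Skil and -0.890 for Smad2, which turned. Depth limits Tgfb2, at 16 to 48 deposited counts, and the low splice forms.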
